A study of Drosophila melanogaster with 32 samples.

Results

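The miRNAs bound by Argonaute1 (Ago1) were compared between dFOXO-null and wDah flies at 5 days of age. The comparison used 8 of the 32 libraries of the series, 4 from each genotype, and its members were the 199 of 209 rows named miR-, let- or bantam that averaged 5 or more reads over those 8 libraries. The 10 rows left out averaged 3.38 reads or fewer. The study immunoprecipitated Ago1 or Ago2 from lysates of whole *Drosophila melanogaster* and sequenced the small RNAs that came with each protein, in both sexes and at 2 ages, to ask how genotype and age alter what each Argonaute carries. wDah is the white-1118 mutation backcrossed into the outbred Dahomey stock, and served as the control. The dFOXO-null flies (wDah;foxo Δ94) carry in addition an imprecise excision of a P element that removes a large part of the foxo coding region, backcrossed into wDah, so both genotypes share the white mutation and the Dahomey background. All flies were mated, the males and females of a genotype were kept together at 25 °C, and each lysate was made from 40 pooled flies. The experiment was done 2 times, which gave 1 wDah female, 1 dFOXO-null female, 1 wDah male and 1 dFOXO-null male library in each. The null genotype is thus 1 deletion allele in 1 line, and no rescue or further allele entered the comparison. No row for foxo was among the genes counted, so the deletion itself was not checked from these libraries.

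In the fly, Ago1 is the Argonaute through which most miRNAs act: a hairpin transcript is cut to a short duplex, 1 arm (the 5p or the 3p strand) is kept as the guide, and the guide's seed, bases 2 to 8 from its 5′ end, pairs with target messages that are then repressed or degraded. Ago2 mainly carries small interfering RNAs and a sorted part of the miRNAs. dFOXO is the single fly member of the FOXO transcription factors, which sit at the end of the insulin pathway, are held in the cytoplasm when insulin signalling is high, and switch on genes of stress resistance, growth restraint and lipid use when it is low. Several fly miRNAs act on the same pathway, among them miR-8, which raises insulin signalling in the fat body, miR-14, which acts in the insulin-producing cells and in fat storage, and miR-278, which alters insulin responsiveness in fat.

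Guide strands with low p-values in the comparison are printed here because the results turn on them, 5′ to 3′, with the seed in capitals. The first 3 are among the 5 that passed the test, the next 3 are among those that came just short of it, and the miR-92 guides share a seed with the miR-310 family. The other miRNAs that passed, and the miR-281 5p arms just short of it, are described without sequence. The sequences were read from the RefSeq annotation of genome Release 6 (dm6), and all 209 rows matched a RefSeq miRNA.
miR-9370-5p: uUUGGGUUgccgguaccgggug
miR-4969-5p: cGGUAAAUugaaugaugaguggga
miR-965-3p: uAAGCGUAuagcuuuuccccuu
miR-1002-5p: uUAAGUAGuggauacaaagggcga
miR-958-3p: uGAGAUUCuucuauucuacuuu
miR-967-5p: aGAGAUACcucuggagaagcg
miR-92a-3p: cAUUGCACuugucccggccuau
miR-92b-3p: aAUUGCACuagucccggccugc
The hairpin of miR-9370 lies at chrX:11710252-11710301 on the minus strand, within an exon of Amun. The hairpin of miR-4969 lies at chr3R:21798514-21798671 on the minus strand, in an intron of CASK and 183 bases from mir-999. The hairpin of miR-965 lies at chr2L:243035-243141 on the minus strand, in an intron of kis. Those of miR-1002 (chr2L:13747609-13747697, in an exon of a long non-coding RNA), miR-958 (chr3L:22669289-22669380, in a long non-coding RNA) and miR-967 (chr2L:12460004-12460100, in an intron of bun) are also on the minus strand. None of the miRNAs that passed the test shared its seed with another member. The foxo gene itself is at chr3R:14056945-14087978, several megabases from miR-4969.

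The 8 libraries held 1802107 to 4179657 mapped reads of at most 25 nt, and levels are given as reads per 1000000 mapped reads (RPM). On these libraries the first principal component of log2 RPM took 83.3% of the variance and separated the sexes, and the next took 9.2% and separated the experiments. The ovarian miRNAs miR-318, miR-989 and miR-994 summed to 23891 to 52210.0 RPM in the 4 female libraries and to 9.09 to 91.6 RPM in the 4 male libraries, in the direction of the sex labels. Libraries of the same experiment deviated from their group means together (correlations of 0.496 to 0.734 in all 6 pairs of groups, over 133 miRNAs), so experiment and sex were both blocks in the main fits. The level of a miRNA in an immunoprecipitate depends on how much of it the fly holds and on how much of that is bound, which cannot be told apart here, nor can fewer cells of a type from less RNA per cell. The labels do not say whether the 2 experiments used separate cohorts, so p-values measure the spread between these lysates.

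Of the 199 miRNAs, 5 differed between the genotypes (edgeR quasi-likelihood test, Benjamini-Hochberg adjusted p under 0.05, 2.51%). The 3 that were higher in dFOXO-null flies (1.51%) were miR-965-3p, miR-311-5p and miR-281-3p, and the 2 that were lower (1.01%) were miR-9370-5p and miR-4969-5p. At an unadjusted p under 0.05 there were 50 (25.1%), 37 of them higher and 13 lower. The median difference over all 199 was 0.24 on the log2 scale, with quartiles of -0.20 and 0.58. 122 of the 199 lay above 0 and 77 below. Scaling by edgeR's TMM factors moved the median down by 0.19, to 0.05, so a difference near this size has no settled sign. Of the 122 miRNAs above 0, 21 lay below 0 under TMM, and none of the 77 below 0 lay above it. Under that scaling 4 miRNAs passed, 1 higher (miR-965-3p) and 3 lower (miR-9370-5p, miR-4969-5p and miR-1002-5p), against 3 higher and 2 lower under the main scaling. Most differences were small: 181 of the 199 lay within 2-fold, 13 were more than 2-fold higher and 5 more than 2-fold lower.

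**Figure D1:**
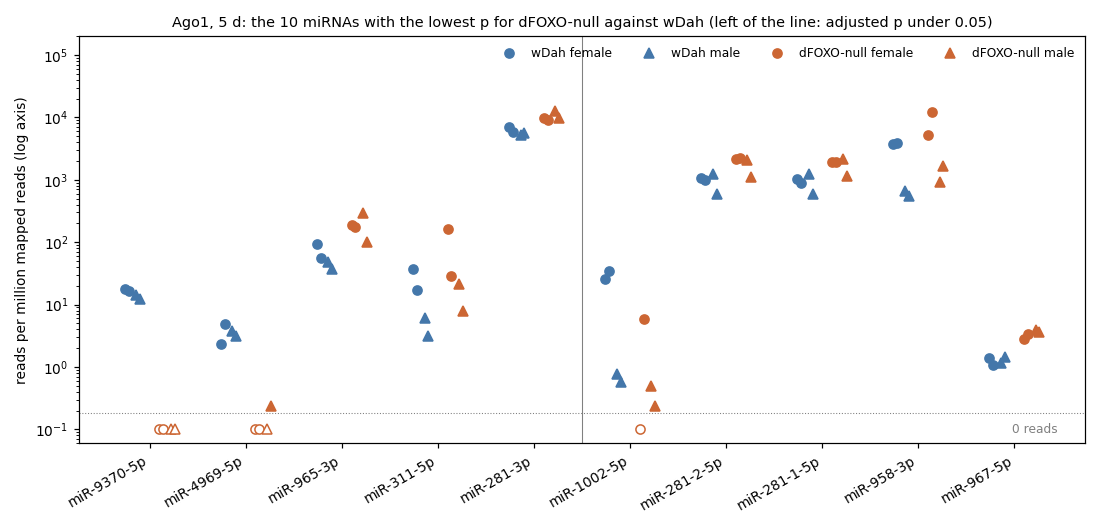
RPM (log axis) of the miRNAs with the lowest p-values in each of the 8 Ago1 libraries at 5 days, by genotype and sex. Filled points are single libraries, open points under the dotted line are libraries with 0 reads, and the miRNAs left of the vertical line passed the test. miR-9370-5p is at 0 reads in all 4 dFOXO-null libraries and between 12.2 and 17.9 RPM in the 4 wDah libraries.

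miR-9370-5p was read 39 and 47 times in the wDah female libraries and 37 and 42 times in the wDah male libraries, that is at 17.9, 16.6, 14.2 and 12.2 RPM. It was not read once in any of the 4 dFOXO-null libraries. The groups did not overlap, in either sex or experiment. With 3 reads per library as the floor, its level was at least 11.9-fold lower in dFOXO-null flies (adjusted p = 0.00306). It passed the threshold in 19 of the 20 alternative fits in which it was tested.

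miR-4969-5p was rarer. It had 5 and 14 reads in the wDah females and 10 and 11 in the wDah males, against 0 and 0 in the dFOXO-null females and 0 and 1 in the dFOXO-null males. Summed, there were 40 reads in wDah and 1 in dFOXO-null libraries, a depth-corrected ratio of 37.6 with an exact 95% interval of 6.38 to 1520 that covers counting error only (adjusted p = 0.00717). Its hairpin was also counted among reads aligned to the genome, a recount of the same libraries and no separate evidence. There it had 6 and 15 reads in wDah females and 10 and 11 in wDah males. It had 0 and 0 in dFOXO-null females and 0 and 1 in dFOXO-null males. Its neighbour miR-999-3p, 1 of the 20 most abundant miRNAs, differed by -0.27 (adjusted p = 0.297). Both miRNAs that fell were thus near absence in the dFOXO-null libraries and rare in wDah. Both passed the minimum of 5 reads on average through their wDah libraries, miR-4969-5p only just. The p-value of miR-4969-5p thus describes a miRNA that its wDah reads kept in the test.

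miR-965-3p, known in the fly for restraining the proliferation and migration of the abdominal histoblasts, had the lowest p of the miRNAs that rose. It stood at 91.8 and 55.8 RPM in wDah females and at 48.6 and 36.5 RPM in wDah males. In dFOXO-null flies it was at 185 and 178 RPM in females and at 296 and 99.5 RPM in males. Each dFOXO-null library was above every wDah library, and the means were 58.2 ± 23.8 RPM in wDah and 189.7 ± 80.8 RPM in dFOXO-null flies (SD, n = 4). The fitted difference was 1.73 ± 0.304 on the log2 scale (SE, adjusted p = 0.0208). It was 1.81 within the first experiment and 1.56 within the other. Counts of its hairpin on the genome ran from 131 to 208 reads in wDah and from 344 to 626 in dFOXO-null libraries. Its other arm, miR-965-5p, had 0 to 5 reads a library and was below the filter.

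miR-311-5p comes from the cluster of miR-310 to miR-313 on chromosome arm 2R, known in the fly for roles at the larval neuromuscular junction and in the ovary under poor nutrition. Its sequence, and that of miR-281-3p from the same arm, is not shown. It was at 37.2 and 17.0 RPM in wDah females against 160.4 and 29.1 RPM in dFOXO-null females. In males it was at 6.12 and 3.18 RPM in wDah against 21.2 and 7.90 RPM in dFOXO-null flies. Females lay above males in each genotype, so the genotype ranges overlapped, while the dFOXO-null library was higher in all 4 matched pairs of sex and experiment. The difference was 1.54 ± 0.316 (SE, adjusted p = 0.0367), and within experiments it was 1.96 in the first and 0.96 in the other. The other arm, miR-311-3p, is far more abundant in females, with 3911 and 1405 RPM in wDah and 3168 and 1337 RPM in dFOXO-null flies, and was at 352 and 116 RPM in wDah and 452 and 238 RPM in dFOXO-null males. It differed by 0.25 (adjusted p = 0.485). So the 5p arm passed the test and the 3p arm of the same hairpin did not, though the difference between the arms was not tested.

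The 3p arms of the miR-310 to miR-313 cluster share their seed, AUUGCAC, with both miR-92 miRNAs, of which miR-92a acts in neural progenitors of the larval brain. All 6 miRNAs of this seed had differences above 0 (5 of the 6 under TMM, where miR-312-3p was at -0.08), from 0.11 (miR-312-3p) to 0.79 (miR-310-3p, adjusted p = 0.0941), with a median of 0.53 beside 0.24 over all 199. Among all 199, 122 lay above 0. By sex, the median of the 6 was 0.12 in females and 0.68 in males, beside 0.18 and 0.19 over all 199. None of the 6 passed the edgeR test and 3 had an unadjusted p under 0.05, beside 50 of all 199. miR-92b-3p was at 1817 and 759 RPM in wDah females, 2265 and 1347 RPM in dFOXO-null females, 122 and 47.2 RPM in wDah males, and 168 and 77.0 RPM in dFOXO-null males, a difference of 0.58 (adjusted p = 0.109). miR-92a-3p differed by 0.63 (adjusted p = 0.122). The dFOXO-null libraries of the miR-92 miRNAs were above their partners in all 4 pairs, as for 40 of all 199. Both miR-92 miRNAs lay far higher in females than in males. These hairpins are at chr3R:25646506-25646600, in an intron of jigr1, and chr3R:25651398-25651497.

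miR-281-3p, a miRNA of the midgut in mosquitoes, was the most abundant of the 5. It was at 6964 and 5882 RPM in wDah females and at 9919.5 and 8990.2 RPM in dFOXO-null females. It was at 5251 and 5566 RPM in wDah males and at 12479.6 and 9716 RPM in dFOXO-null males. The ranges did not overlap, with means of 5916 ± 745 RPM in wDah and 10276 ± 1522 RPM in dFOXO-null flies (SD, n = 4) and a difference of 0.79 ± 0.163 (SE, adjusted p = 0.0367). The 2 hairpins of miR-281 have like 5p arms, which differ at 1 position after a shift of 1 base, so reads may be counted at both. miR-281-2-5p was at 1057 and 985 RPM in wDah females, 2170.2 and 2212 RPM in dFOXO-null females, 1225 and 595 RPM in wDah males, and 2058 and 1112 RPM in dFOXO-null males. It differed by 0.96 ± 0.223 and miR-281-1-5p by 0.94 ± 0.218, both with an adjusted p of 0.0503. The 3 rows of the miR-281 family thus lay between 0.79 and 0.96, on either side of the threshold.

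The calls rest on few libraries. Of the 5, 2 (miR-9370-5p and miR-4969-5p) passed without the experiment as a block, and within the first experiment alone none of the 4 tested there passed (miR-4969-5p was below the minimum of reads), with differences of like size for miR-965-3p, miR-311-5p and miR-281-3p (1.81, 1.96 and 0.88). None passed when only the 133 miRNAs averaging 50 or more reads were tested, which leaves out both miRNAs that fell, and there miR-965-3p, miR-311-5p and miR-281-3p shared the lowest adjusted p, 0.0544, with 35 miRNAs at an unadjusted p under 0.05 in edgeR. Without 1 of the wDah female replicate 2, wDah male replicate 1 or wDah male replicate 2 libraries, only miR-9370-5p passed. Of the alternative fits that tested it, miR-965-3p passed in 13 and missed in 8. The counts were 7 and 13 for miR-311-5p, 5 and 16 for miR-281-3p, and 13 and 1 for miR-4969-5p. Neither miR-311-5p nor miR-281-3p passed under TMM or median-of-ratios factors.

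**Figure D2:**
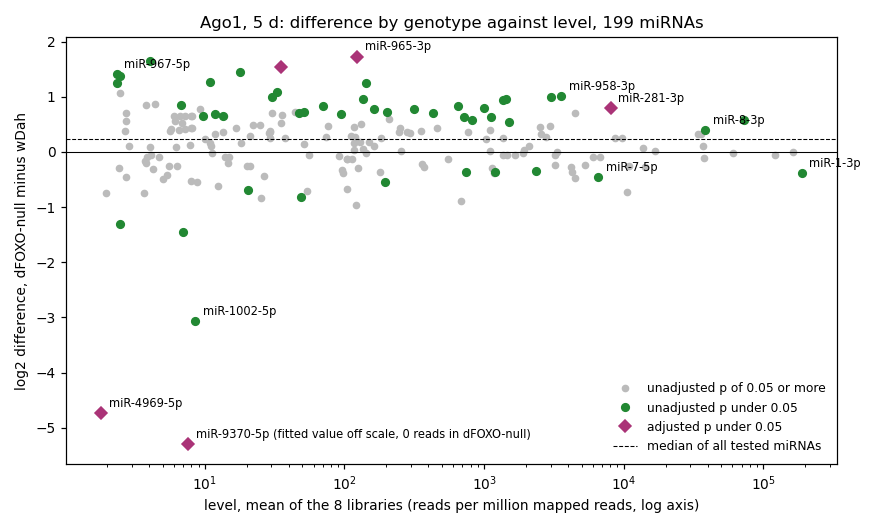
Log2 difference, dFOXO-null minus wDah, against the mean RPM over 8 libraries (log axis) for the 199 miRNAs in Ago1 at 5 days. Diamonds passed the test, green points had an unadjusted p under 0.05, the dashed line is the median of all, and most of the abundant miRNAs lie within 1 log2 unit of 0, and miR-9370-5p is drawn off scale.

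The next miRNAs in order of p missed the threshold. miR-1002-5p had 55 and 99 reads in wDah females and 0 and 14 reads in dFOXO-null females, while males had 2 and 2 reads in wDah and 1 and 1 in dFOXO-null flies. The difference, -3.06 ± 0.702 (SE, adjusted p = 0.0503), therefore rests on the female libraries. miR-958-3p, known in the fly for acting on the Toll immune pathway, was at 3793 and 3931 RPM in wDah females, 5159.5 and 11949 RPM in dFOXO-null females, 665 and 556 RPM in wDah males, and 916 and 1647 RPM in dFOXO-null males. Its difference was 1.02 ± 0.247 (SE, adjusted p = 0.0563), with the dFOXO-null library higher in all 4 pairs. miR-967-5p had 3, 3, 3 and 5 reads in wDah and 5, 8, 8 and 15 reads in dFOXO-null libraries, a difference of 1.41 ± 0.345 (SE, adjusted p = 0.0563). On the RPM scale its groups did not overlap, at 1.06 to 1.45 in wDah and 2.77 to 3.94 in dFOXO-null flies.

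Over the 199 miRNAs, the 4 libraries of 1 genotype lay wholly above the 4 of the other for 7 (3.52%), 3 with the dFOXO-null libraries on top and 4 with the wDah libraries on top. The former were miR-965-3p, miR-281-3p and miR-967-5p. The latter were miR-9370-5p, miR-4969-5p, miR-7-5p and miR-31b-5p. miR-7-5p, known for stabilising cell fate decisions in the fly eye and other tissues, was at 6736 and 7641 RPM in wDah females, 5213 and 6038 RPM in dFOXO-null females, 6939.6 and 9069 RPM in wDah males, and 4469.7 and 6391 RPM in dFOXO-null males. Its difference was -0.46 ± 0.145 (SE, adjusted p = 0.119), and that of miR-31b-5p was -0.35 (adjusted p = 0.194). The dFOXO-null library was on the same side of its wDah partner in all 4 pairs for 63 miRNAs (31.7%), 40 of them higher and 23 lower.

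The 20 miRNAs most abundant in wDah held 90.24 ± 2.44% of the mapped reads in wDah and 88.5 ± 2.53% in dFOXO-null flies (SD, n = 4). The share differed by -1.73 percentage points and was lower in 4 of 4 pairs. The exact two-sided permutation p was 0.13, the smallest that exchanging genotypes within 4 pairs, in 16 arrangements, can give. The 20 were ranked by level in these wDah libraries, a choice that favours a lower share in dFOXO-null libraries. The pairs and the p therefore do not test a genotype difference. None of the 20 passed the test. miR-1-3p, the muscle miRNA and the most abundant of all, was at 210472 ± 23656 RPM in wDah and 165924 ± 48214 RPM in dFOXO-null flies, and was lower in all 4 pairs (-0.39 ± 0.166, adjusted p = 0.194). miR-8-3p was at 33139 ± 5897 RPM in wDah and 43617 ± 7048 RPM in dFOXO-null flies, and was higher in all 4 pairs (0.40 ± 0.128, adjusted p = 0.122). miR-14-3p differed by 0.57 (adjusted p = 0.194), also higher in all 4 pairs. Others were close to 0: the growth miRNA bantam-3p differed by -0.02, miR-276a-3p, which acts on dopamine receptors in olfactory memory, by -0.01, and miR-277-3p, which acts on the breakdown of branched-chain amino acids, by -0.12. The median SE was 0.174 for the 49 miRNAs of 1000 RPM or more and 0.288 over all 199, so differences of about these sizes were within the error of a single miRNA.

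**Figure D3:**
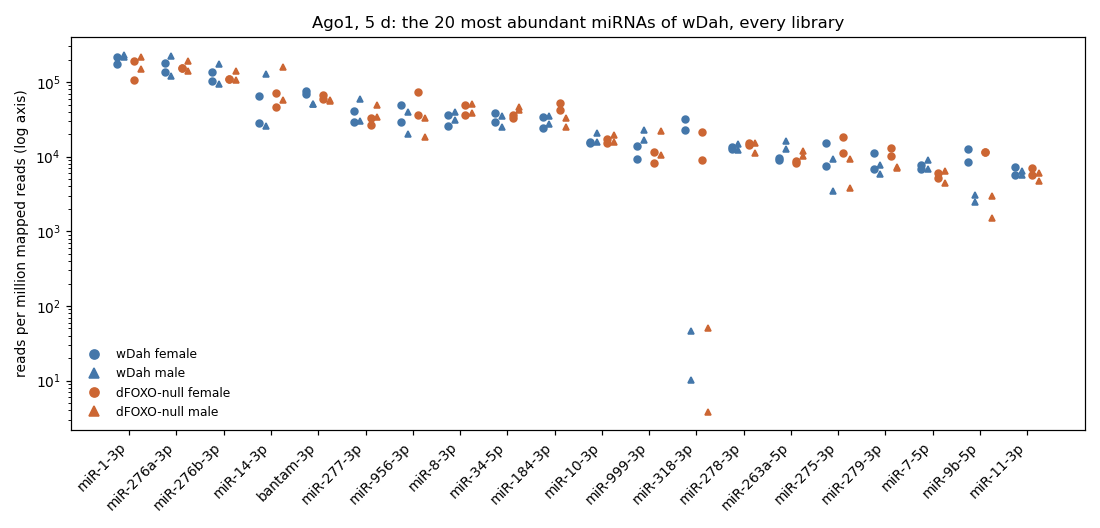
RPM (log axis) of the 20 most abundant miRNAs in the 8 Ago1 libraries at 5 days, with genotypes by colour and sexes by marker. The libraries of both genotypes overlap for nearly all of them, and miR-318-3p is high in females alone.

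miRNA reads as a whole made up 99.43 ± 0.592% of the mapped reads in wDah and 99.23 ± 0.328% in dFOXO-null flies (SD, n = 4), with an exact permutation p of 0.375. The remainder, reads of transposons and 1 virus row, was 0.509 and 1.42% in wDah females, 0.657 and 1.26% in dFOXO-null females, 0.182 and 0.155% in wDah males, and 0.599 and 0.565% in dFOXO-null males. It was thus higher in both dFOXO-null male libraries than in both wDah male libraries, and overlapped in females (exact permutation p = 0.375 over all 4 pairs).

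Groups of miRNAs were then described by role, beside the median of 0.24 and the 2.51% called over all 199. Of 9 miRNAs tied to insulin, FOXO or lipid storage, none passed the edgeR test, 2 had an unadjusted p under 0.05 with higher values (miR-8-3p and miR-14-3p), and the median difference was 0.03 (-0.16 under TMM). The other 7 lay between -0.36 (miR-9a-5p) and 0.26 (miR-275-3p), with miR-278-3p at 0.06 and miR-33-5p, which lowers fat storage, at 0.03. Of 6 tied to ageing, none passed, 2 had an unadjusted p under 0.05 (miR-317-3p at 0.54 and miR-100-5p at 0.63), and the median was 0.32. miR-34-5p, which protects the ageing fly brain, differed by 0.32 (adjusted p = 0.288). Of 11 miRNAs that the study singled out, none passed, 1 had an unadjusted p under 0.05 with a higher value (miR-14-3p) and 2 with a lower one (miR-1-3p and miR-7-5p), and the median was 0.04 (-0.15 under TMM). The study named those from total small RNA of the same lines or from Ago1 of older flies, not from these 8 libraries. For Ago1 of young flies, it reported no significant genotype effect beyond a 2-fold threshold in either sex. The study stated that its Ago1 work focused on the miRNAs most abundant in its total small RNA. That report therefore need not cover all 199 miRNAs compared here.

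Markers of tissues were read in the same way. Of 5 gut and epithelial miRNAs measured, of 6 in the list, 1 passed (miR-281-3p) and the median was 0.79. The 3 rows of miR-281 were higher, while miR-263a-5p and miR-263b-5p, which guard sensory organ cells from death, differed by -0.25 and -0.37, so the list did not move as 1. The 2 muscle miRNAs differed by -0.39 (miR-1-3p) and 0.40 (miR-133-3p), and summed to 108056 to 230790.0 RPM. The 5 nervous system miRNAs had a median of -0.05 and summed to 1379 to 2994 RPM, and the 9 mirtrons measured, of 15, had a median of 0.37. Nervous and muscle lists held no called miRNA in edgeR, with 0 and 1 at an unadjusted p under 0.05, and the ranges of their summed levels overlapped between the genotypes.

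Lists of the germ line differ most between the sexes in level. The 3 ovarian miRNAs had a median difference of -0.48, with -0.72 ± 0.426 for miR-318-3p (SE, adjusted p = 0.321), -0.48 for miR-994-5p and 0.71 for miR-989-3p, which guides border cell migration in the egg chamber. Their summed level was 52210.0 and 34327 RPM in wDah females and 46582 and 23891 RPM in dFOXO-null females. Of the 13 testis miRNAs measured, of 19, none passed in the joint fit, 5 had an unadjusted p under 0.05 and all of those were higher. Several of these miRNAs passed the minimum of reads through the males alone, so the female libraries are described by summed levels. The testis list summed to 128 and 65.0 RPM in wDah females, 294 and 140.0 RPM in dFOXO-null females, 1390.1 and 1002 RPM in wDah males, and 1287 and 1249.9 RPM in dFOXO-null males.

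The miR-959 to miR-964 cluster summed to 45.5 and 28.3 RPM in wDah females and 272 and 101 RPM in dFOXO-null females, and to 334 to 462 RPM in the 4 male libraries. The miR-972 to miR-979 cluster summed to 0.459 and 0.706 RPM in wDah females and 1.11 and 2.49 RPM in dFOXO-null females, against 262 to 427 RPM in males. In dFOXO-null females the miR-959 to miR-964 cluster thus stood between the levels of wDah females and of males, and the miR-972 to miR-979 cluster was near absence in all females. The part of any testis or other tissue RNA in these female values was not tested.

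**Figure D4:**
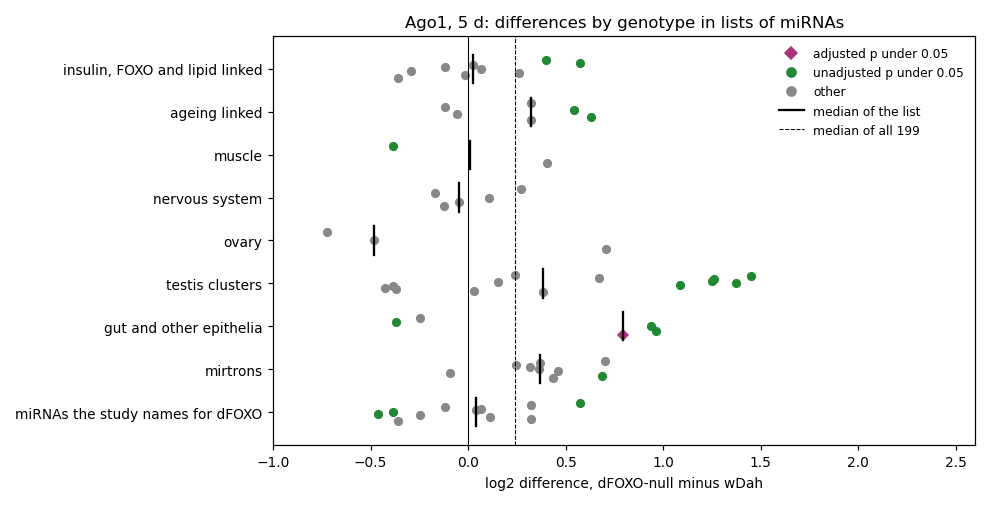
Log2 difference, dFOXO-null minus wDah, of each measured member of the miRNA lists in Ago1 at 5 days, as 1 point a miRNA, with the median of the list (bar) and of all 199 (dashed line). The diamond passed the test and green points had an unadjusted p under 0.05. The list medians run from -0.48 to 0.79 around the median of all miRNAs, 0.24.

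With a genotype difference for each sex in 1 fit of all 8 libraries, which share the estimate of spread, 2 of 199 passed in females (1.01%) and 0 in males (0%). The 2 in females were miR-9370-5p (adjusted p = 0.0468) and miR-964-5p, of the cluster above. miR-964-5p was at 35.4 and 13.4 RPM in wDah females and at 199 and 64.4 RPM in dFOXO-null females, a difference of 2.39 ± 0.370 (SE, adjusted p = 0.0468). In males it was at 267 and 133 RPM in wDah and at 257 and 178 RPM in dFOXO-null flies, a difference of 0.21. The test of the difference between the sexes gave 2.17 for this miRNA with an unadjusted p of 0.00388 and an adjusted p of 0.417. In males 30 miRNAs had an unadjusted p under 0.05 in edgeR, and miR-9370-5p had the lowest adjusted p, 0.0533. The genotype difference passed a test of its change with sex for 0 of 199 miRNAs (0%), with 15 at an unadjusted p under 0.05 in edgeR, so no miRNA was shown to respond differently in the 2 sexes. Without the dFOXO-null female replicate 2 library the count in females was 11, where the lone dFOXO-null female library is assumed to vary like the other groups, and it was 0 without the dFOXO-null female replicate 1 library or any 1 of the 4 wDah libraries.

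The reads of exactly 21 nt, a length at which small RNAs of Ago2 are common, were counted apart by the authors. They made up 12.71 ± 1.29% of the miRNA reads in wDah and 13.19 ± 0.963% in dFOXO-null flies (SD, n = 4, exact permutation p = 0.25). In these reads 5 of 150 miRNAs passed (3.33%): miR-9370-5p and miR-986-5p were lower, and miR-965-3p (2.16), miR-281-2-5p (1.10) and miR-281-1-5p (1.01) were higher. The 21-nt reads are a subset of those above and give no separate evidence.

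The fraction of a miRNA's reads that are 21 nt long differed for 1 of 125 miRNAs (0.8%), miR-986-5p, whose hairpin lies on chromosome arm 2R in an intron of Cyp4e2. In wDah 35.25 and 22.37% of its reads were 21 nt long in females and 35.68 and 29.97% in males. In dFOXO-null flies the fraction was 17.35 and 15.32% in females and 20.44 and 17.69% in males. The groups did not overlap. That also held for miRNAs that did not pass, such as miR-210-5p and miR-929-5p (limma, adjusted p of 0.479 and 0.567). For miR-986-5p the difference in log2 of the ratio of 21-nt to other reads was -1.04 ± 0.143 (SE, limma, adjusted p = 0.0097). Its level over all lengths was at 2066, 2446, 3844 and 5713 RPM in wDah females and males, and at 1702, 2191, 3417 and 4564 RPM in dFOXO-null females and males, which differed by -0.24 ± 0.144 (SE, adjusted p = 0.33). The call on the fraction missed the threshold without the dFOXO-null female replicate 1 or the dFOXO-null male replicate 1 library (adjusted p of 0.0503 and 0.0709).

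**Figure D5:**
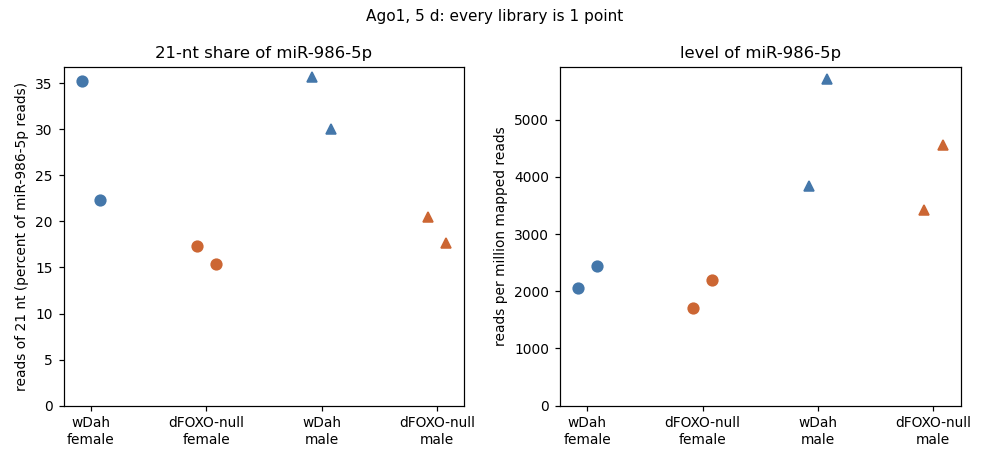
Percent of miR-986-5p reads that were 21 nt long (left) and its level in RPM over all lengths (right) in each of the 8 Ago1 libraries at 5 days, by genotype and sex. The 4 dFOXO-null libraries lie between 15.32 and 20.44%, below the 4 wDah libraries at 22.37 to 35.68%, while the levels overlap.

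The same miRNAs were read in the 8 Ago1 libraries at 35 days, from other flies of the same lines. There 17 of 199 passed (8.54%), 9 of them up and 8 down in dFOXO-null flies. There miR-9370-5p had 20 and 20 reads in wDah females, 27 and 53 in wDah males and 0 in all 4 dFOXO-null libraries, at least 12.2-fold lower. miR-4969-5p averaged under 5 reads and was not tested at 35 days, and had 3 and 10 reads in wDah females, 3 and 8 in wDah males, 0 and 0 in dFOXO-null females and 0 and 1 in dFOXO-null males. Both miRNAs were thus at or near 0 in dFOXO-null flies of either age.

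miR-311-5p was higher by 1.66 at 35 days (edgeR, adjusted p = 0.0097). It was at 9.54 and 7.04 RPM in wDah females against 73.2 and 7.94 RPM in dFOXO-null females. In males it was at 4.24 and 0.995 RPM in wDah against 5.05 and 5.74 RPM in dFOXO-null flies. The female replicate 2 and male replicate 1 pairs thus hardly differed. miR-965-3p differed by 0.31 (adjusted p = 0.542) and miR-281-3p by 0.22 (adjusted p = 0.488). The change of the genotype difference with age was -1.41 for miR-965-3p, with an unadjusted p of 0.00366 and an adjusted p of 0.0947. It passed the threshold for 0 of 199 miRNAs (0%), with 46 at an unadjusted p under 0.05 in edgeR, so a call at 1 age alone does not show that the ages differed. Of the miRNAs just short of the threshold at 5 days, miR-967-5p (1.56, adjusted p = 0.0411) and miR-1002-5p (-4.42) passed at 35 days. So did miR-964-5p, at 1.39. miR-1002-5p had 1 and 4 reads in wDah males and 0 and 1 in dFOXO-null males, so its value rests on females. miR-964-5p was at 10.7 and 10.9 RPM in wDah females and 157 and 40.0 RPM in dFOXO-null females. In males it was at 216 and 99.3 RPM in wDah and 276 and 124 RPM in dFOXO-null flies.

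In Ago2 at 5 days, from the same design, 2 of 144 miRNAs passed (1.39%), the 5p arms of miR-276a and miR-276b, which have identical sequences and so count as 1. They differed by -1.24 on the log2 scale (adjusted p = 0.0164), lower in dFOXO-null flies. In Ago1 the same arm differed by -0.13. miR-9370-5p was read 2 and 2 times in wDah females, 2 and 10 times in wDah males and 0 times in the 4 dFOXO-null libraries of Ago2. These Ago2 libraries held only 30762 to 561722 mapped reads. With 3 reads per library as the floor the bound was 0.92-fold, so the counts of 0 do not show a lower level in Ago2. miR-965-3p differed by 1.03 ± 0.409 (SE, adjusted p = 0.223) and miR-281-3p by 0.54 ± 0.256 (SE, adjusted p = 0.302) in Ago2, which did not pass.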

How the data were processed

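Small RNAs were co-immunoprecipitated with antibodies to Ago1 or Ago2 and sequenced. Per the methods, the authors trimmed reads with Trim Galore, reverse complemented them, kept those of at most 25 nt (or of 21 nt), and aligned them with Bowtie, keeping all valid alignments with 1 mismatch, to a collection of spike-ins, transposons, mature miRNAs and star strands. featureCounts then counted them. The deposited values are raw counts, not normalised and not pooled. Versions are not given in the sources used here. A table of reads counted on the genome served only as a second count of named hairpins. The authors' tables of percentages were not used.

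Library size was the column total without spike-in rows, 1802107 to 4179657 reads, so that 3 reads correspond to 0.718 to 1.66 RPM. miRNA reads can map to near-identical rows. Such rows are named above for the 5p arms of miR-281 and miR-276. The 3p arms of miR-276a and miR-276b differ at 1 position, so reads may be counted at both. Not all rows were compared, among them miR-31a-5p and miR-31b-5p, which share a seed. Rows averaging under 5 reads over the 8 libraries were left out. The test on counts was that of edgeR 4.0.16 under R 4.3.3 (quasi-likelihood, sex and experiment as blocks, no further scaling) and adjusted by Benjamini-Hochberg over all miRNAs tested. The percentage of 21-nt reads was computed from both count tables, for miRNAs of 50 or more reads on average. The test, with limma 3.58.1, was on log2 of the ratio of 21-nt to other reads, with 0.5 reads added to each. Shares of libraries were tested by exact exchange of genotypes within 4 pairs, two-sided. Replicate numbers in the labels are experiment numbers, and same-numbered libraries deviated together in all 6 pairs of groups. Alternatives were TMM and DESeq2 1.42.0 factors, DESeq2 itself, other filters and library sizes, 16 libraries in 1 fit, the 4 pairs or no block, each experiment alone, and each library left out. The miRNAs named are those past the threshold, the next by p, the 20 most abundant and those of the lists. The members and the lists were chosen with earlier results of these data known.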

Additional observations from a re-analysis of the deposited data

How the results depend on the processing

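Among the shares, and the miRNAs past the threshold in an Ago1 fit at 5 days or next to it by p, none changed sign. Other named miRNAs near 0 could, and miR-312-3p did so under TMM, as given above. Over all miRNAs, 21 of 199 went from above 0 to below 0 with TMM factors and 16 with median-of-ratios factors, among them members of the lists. The 5 miRNAs past the threshold at 5 days became 14 with 16 libraries in the fit (4 of the 5 among them), 10 with DESeq2 (4 of the 5), 0 with a minimum of 50 reads, 2 with transposon rows in the fit, 0 of 193 within the first experiment and 64 within the other (51 higher). Leaving out single libraries gave 1 to 12, with 12 (9 higher) without the dFOXO-null female replicate 1 library, and 0 to 11 in females, 0 to 1 in males, 0 to 2 for the difference between sexes and 0 to 1 for the 21-nt fraction. TMM factors gave 4 (1 higher, 3 lower), as did median-of-ratios factors, and 5 in females (1 higher, 4 lower), 1 in males and 1 in 21-nt reads. The causes were not tested, except that fewer miRNAs or libraries entered some of these fits.

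With no replicate block, that is without the experiments that pair the libraries, the counts were 2 at 5 days, 1 in females, 1 in males, 1 in 21-nt reads, 0 for the 21-nt fraction, 1 at 35 days in place of 17, and 0 in Ago2. Leaving out single libraries moved the difference in the share of mapped reads between -0.325 and -0.131 for miRNAs, 0.131 and 0.325 for transposons and -1.996 and -1.395 for the 20 most abundant, and in the 21-nt share between 0.382 and 0.734. The median SE was 0.288 over all miRNAs and 0.174 at 1000 RPM or more. The part of depth in it was not tested.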

Other observations

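The maternally and early zygotically expressed cluster of miR-309, of which 5 rows were measured (miR-3-3p, miR-4-3p, miR-5-5p, miR-6-3p and miR-286-3p), was chosen after its values were seen and is given without a test of the group. These miRNAs act in the early embryo, where they help clear maternal messages. Summed, they stood at 2861 and 2487 RPM in wDah females and at 324 and 1133 RPM in dFOXO-null females. In males they stood at 94.2 and 66.2 RPM in wDah and at 109 and 79.7 RPM in dFOXO-null flies. All 5 differences lay below 0, from -1.45 (miR-4-3p, adjusted p = 0.172) to -0.71 (miR-286-3p, adjusted p = 0.433), with a median of -0.88 beside 0.24 over all 199. None passed the edgeR test, and 1 had an unadjusted p under 0.05. The median was -1.74 in females and 0.19 in males. For miR-286-3p the difference between the sexes was -2.78, with an unadjusted p of 0.00444 and an adjusted p of 0.417. Both dFOXO-null female libraries were thus below both wDah female libraries, and 1 of them, replicate 1, was the lower by far. The same females had ovarian miRNAs at 46582 and 23891 RPM against 52210.0 and 34327 RPM in wDah, and the part of ovary or stored eggs in these values was not tested.

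By chromosome arm of the hairpin, the median difference was 0.26 on 2L (48 miRNAs), 0.18 on 2R (43), -0.01 on 3L (30), 0.31 on 3R (48), which carries foxo, and 0.17 on X (30). Under TMM those of 2R and X were both -0.01. No arm held more than 2 of the 5 miRNAs past the threshold.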
